A study of Mus musculus with 18 samples.

Results

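Ccnd1, Tgfa, Tle1, Egln3, Tcf24, Adgrv1, Ppl, Man2a2, Akr1c14 and Ccdc162 are 10 genes with higher transcript levels in mouse liver after an antisense oligonucleotide (ASO) against ACAT2. They were chosen by name, and are the 10 largest of the 28 called rises with non-overlapping groups in that comparison, leaving out symbols of unnamed clones and predicted genes. All 10 were found among 17097 measured genes, with 16 of the 28898 probe sets that have 1 gene symbol. The comparison of ACAT2 ASO with control ASO therefore chose them, and its values are given for these genes as a description, with no test. The comparison of transgenic with wild-type liver uses none of these arrays for its group means and was tested. Its errors come from a spread estimated over all 18 arrays, the 8 of the ASO model included.

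The study stimulated loss of cholesterol through the intestinal wall, which does not pass through bile, in a pair of mouse models and profiled liver RNA of females aged 6 to 8 weeks on Affymetrix MG-430 PM arrays. The acute model held 4 samples given an ASO directed at ACAT2, the enzyme that esterifies cholesterol in hepatocytes, and 4 given a non-targeting control ASO, all C57BL/6N. The chronic model held 5 samples labelled NPC1L1-Liver-Transgenic and 5 labelled wild type, all C57BL/6. The labels used here state neither dose nor length of the ASO treatment, nor the promoter and species of the transgene. The mRNA against which the ASO is directed was not analysed here. Nothing in the labels says that samples came from separate animals, so the p-values rest on sample-to-sample spread that may be technical.

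The 12 measured hepatocyte markers averaged between 11.60 and 11.95 on the log2 scale on every array. The deposited values are RMA log2 probe set summaries, and they depend on the probes, so a level is compared only with levels of the same probe set in the same model. In whole liver, more cells of a type and more RNA per cell cannot be told apart. Control ASO 4, wild type 2 and ACAT2 ASO 1 correlated least with the other arrays of their groups, with mean correlations of 0.988, 0.988 and 0.991 against 0.992 to 0.995 on the other 15. Without these 3 arrays, a choice made after seeing the data, the ACAT2 ASO differences of the 10 genes lay between 0.35 and 1.00.

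Adult hepatocytes seldom divide, and they re-enter the cell cycle when growth factors reach them, as they do in the regenerating liver. Cyclin D1, encoded by Ccnd1, joins the kinases CDK4 and CDK6, which phosphorylate the retinoblastoma protein and free E2F factors. Transforming growth factor alpha, encoded by Tgfa, is a ligand of the EGF receptor that hepatocytes make themselves. The remaining genes encode proteins of other kinds: a corepressor, an oxygen-sensing hydroxylase, a transcription factor, an adhesion receptor, a cytolinker and enzymes of glycan and steroid metabolism.

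After ACAT2 ASO, Ccnd1 was 1.61-fold higher than after control ASO. The control ASO arrays 1 to 4 gave 8.97, 9.35, 9.10 and 8.75, and the ACAT2 ASO arrays 1 to 4 gave 9.72, 9.86, 9.83 and 9.53. Every ACAT2 ASO array thus lay above every control ASO array, with a gap of 0.18 between the nearest. The group means were 9.73 ± 0.15 and 9.04 ± 0.25 (SD, n = 4), a log2 difference of 0.69. Both other Ccnd1 probe sets were higher too, by 0.54 and 0.50.

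Ccnd1 lay on the other side in the transgenic model. Wild-type arrays 1 to 5 gave 9.91, 10.18, 9.76, 9.83 and 9.999, and transgenic arrays gave 9.27, 9.51, 9.73, 9.71 and 9.56. These groups did not overlap either, although the highest transgenic array and the lowest wild-type array were close. The difference was -0.38 ± 0.11 (SE; 95% interval -0.62 to -0.15), with an unadjusted limma p of 0.00332 and an adjusted p of 0.194 over all genes, so it was not called. Its other probe sets differed by -0.29 and -0.40 in that model, and on both the groups overlapped. Transgenic 4 gave 9.27 and 8.13 on these, above wild type 3 at 9.17 on the first and wild type 4 at 8.09 on the second. Transgenic 1 was the lowest Ccnd1 array of the model, and without it the difference was -0.31. Whether the effects in the ASO and transgenic models differ was not tested for this gene, because the ASO effect chose it.

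Tgfa was 1.33-fold higher after ACAT2 ASO on its brightest probe set. Control ASO arrays gave 6.50, 6.56, 6.60 and 6.45, and ACAT2 ASO arrays gave 7.03, 6.80, 7.06 and 6.85. The controls were tightly grouped (6.53 ± 0.06 against 6.93 ± 0.13, SD, n = 4), and the nearest arrays of the groups were 0.20 apart. Its other probe sets averaged 4.52 and 4.53 in the ACAT2 ASO group and 4.49 and 4.45 in controls. They differed by 0.03 and 0.09, so the rise of this growth factor gene rests on 1 of its 3 probe sets. In the transgenic model the brightest probe set averaged 7.17 ± 0.07 in wild-type and 7.15 ± 0.13 in transgenic liver (SD, n = 5). That difference was -0.03 (95% interval -0.16 to 0.11, limma adjusted p = 0.93), and one of the dimmer probe sets differed by -0.20.

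**Figure D1:**
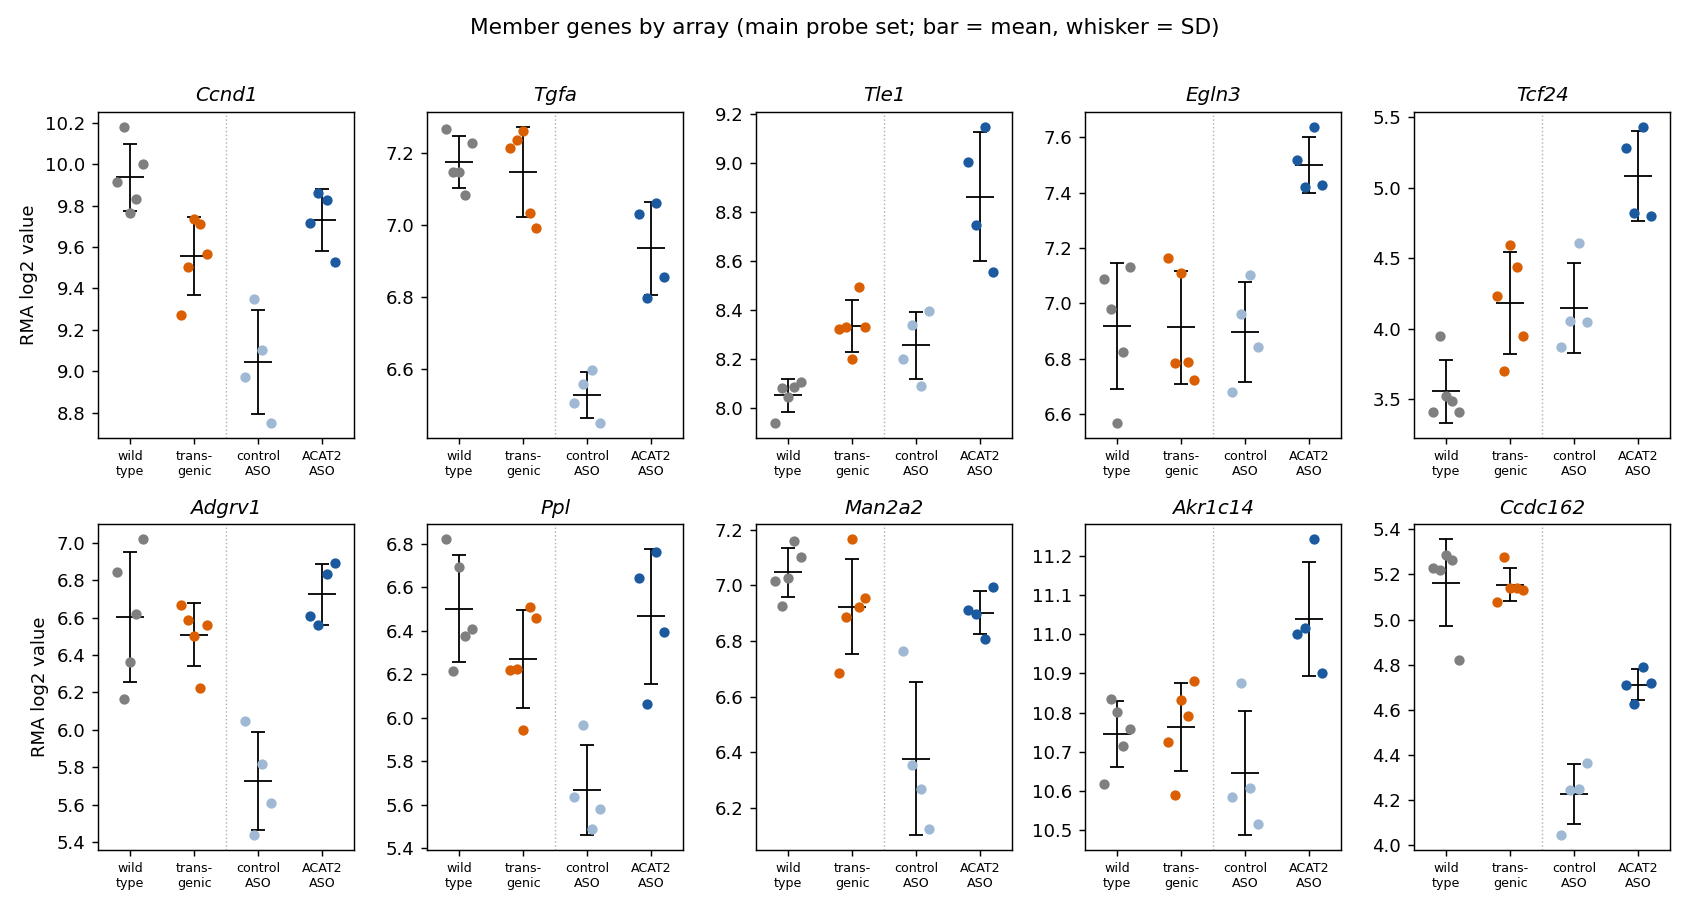
RMA log2 values (y axis) of the main probe set of each of the 10 genes on each array, by group along the x axis; each dot is an array in replicate order, the bar the group mean and the whisker the SD (n = 5, 5, 4 and 4). In each panel the 4 ACAT2 ASO dots lie above the 4 control ASO dots, while in the transgenic model on the left the groups are apart only for Ccnd1, which is lower, and Tle1, which is higher.

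Tle1 encodes a corepressor of the Groucho family, which DNA-binding factors such as TCF/LEF and HES proteins recruit. It was 1.52-fold higher after ACAT2 ASO, where control ASO arrays gave 8.20, 8.34, 8.09 and 8.39 and ACAT2 ASO arrays gave 9.005, 8.75, 9.15 and 8.55. Arrays 1 and 3 of the ACAT2 ASO group were well above arrays 2 and 4, which left a gap of 0.16 to the controls. In the transgenic model Tle1 lay on the same side, with no overlap: the wild-type arrays gave 7.94, 8.08, 8.04, 8.09 and 8.10, and the transgenic ones 8.32, 8.33, 8.20, 8.49 and 8.33. The difference was 0.28 ± 0.09 (SE; 95% interval 0.09 to 0.48), with an unadjusted limma p of 0.00662 and an adjusted p of 0.241, so it was not called. Only 1 probe set measures Tle1.

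Tcf24 encodes a basic helix-loop-helix transcription factor. Control ASO arrays gave 3.87, 4.06, 4.61 and 4.05 and ACAT2 ASO arrays gave 5.28, 4.82, 5.43 and 4.80, a log2 difference of 0.94. Its single probe set was dim, at percentile 27.1 of all genes by mean level. Transgenic arrays gave 4.23, 3.70, 4.59, 4.44 and 3.95 against 3.41, 3.95, 3.52, 3.49 and 3.41 in wild type. Wild type 2 overlapped the transgenic group. That difference was 0.63 ± 0.18 (SE; 95% interval 0.25 to 1.01), with an unadjusted limma p of 0.00272 and an adjusted p of 0.178, so it was not called. Tcf24 was among the more variable genes, at percentile 94.8 by its SD within the transgenic model and 94.6 within the ASO model.

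Egln3 encodes a prolyl hydroxylase that marks the alpha subunits of hypoxia-inducible factor (HIF) for degradation when oxygen is present, and it is itself a known HIF target. Its promoter is shown because HIF binds a short core sequence. These are the 250 bases before its start site in RefSeq (GRCm38.p6, chr12:54203875-54204124, minus strand, 5′ to 3′), with the HIF core ACGTG and the GC box GGGCGG in capitals.
Egln3: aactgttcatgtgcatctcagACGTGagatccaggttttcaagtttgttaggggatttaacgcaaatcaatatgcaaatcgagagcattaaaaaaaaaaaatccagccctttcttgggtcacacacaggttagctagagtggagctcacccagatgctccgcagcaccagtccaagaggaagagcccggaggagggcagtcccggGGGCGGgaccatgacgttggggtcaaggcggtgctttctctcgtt
The HIF core began 229 bases and the GC box 45 bases before the start. Of the 32851 promoter windows in the RefSeq table, 16.6% hold ACGTG on either strand and 32.7% hold GGGCGG. The table has such a window for 5 of the 10 genes: Tle1 and Egln3 held ACGTG, and these as well as Tgfa held GGGCGG. None of the 5 held TGANTCA (AP-1, in 6.75% of all windows), TGACGTCA (CRE, 1.55%), CTTTGA (TCF/LEF core, 13.8%), TTTCCCGC or TTTGGCGC (E2F, 0.895% and 0.417%), or CACGTG (E-box, 6.02%, which contains the HIF core). A match is only a string of letters in this window.

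The Egln3 values after control ASO were 6.68, 6.96, 7.10 and 6.84, and after ACAT2 ASO 7.52, 7.42, 7.64 and 7.43. With a gap of 0.32 between the nearest arrays, the groups were further apart than for any other of the 10 genes except Adgrv1. The other Egln3 probe set, 6.38 ± 0.13 against 6.19 ± 0.08 (SD, n = 4), differed by 0.19, less than the 0.61 of the main one. In the transgenic model Egln3 ranged from 6.57 to 7.13 among wild-type arrays and from 6.72 to 7.16 among transgenic ones. The difference of -0.0038 had a 95% interval of -0.24 to 0.23 (limma adjusted p = 0.995).

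Adgrv1, the very large adhesion G protein-coupled receptor known from hair cells of the inner ear and from Usher syndrome, differed most. Control ASO arrays gave 6.05, 5.44, 5.82 and 5.61, and ACAT2 ASO arrays gave 6.61, 6.56, 6.83 and 6.90. The nearest arrays of the groups were 0.52 apart, and the log2 difference was 1.00. Its second probe set averaged 3.07 in the ACAT2 ASO group and 3.10 in controls, near the bottom of the scale, and differed by -0.03. In the transgenic model Adgrv1 spread widely in wild type, from 6.16 to 7.02, and transgenic arrays lay between 6.23 and 6.67. The difference was -0.09 (95% interval -0.40 to 0.22, limma adjusted p = 0.889).

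Ppl encodes periplakin, which links intermediate filaments to the cell membrane. It read 5.63, 5.96, 5.49 and 5.58 after control ASO and 6.64, 6.06, 6.76 and 6.40 after ACAT2 ASO, a log2 difference of 0.80. ACAT2 ASO 2 was only 0.10 above control ASO 2. Transgenic liver averaged 6.27 ± 0.23 and wild-type liver 6.50 ± 0.25 (SD, n = 5), a difference of -0.23 with a 95% interval of -0.54 to 0.07 (limma adjusted p = 0.608).

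Man2a2 encodes a Golgi alpha-mannosidase that trims N-glycans. Control ASO arrays gave 6.76, 6.35, 6.27 and 6.12, and ACAT2 ASO arrays gave 6.91, 6.90, 6.81 and 6.99. Control ASO 1 stood above the other controls, within 0.04 of the lowest ACAT2 ASO array. The group SDs were 0.27 and 0.08, and the log2 difference was 0.53, or 0.65 without control ASO 1 and 0.44 without control ASO 4. Transgenic liver differed by -0.12 (95% interval -0.33 to 0.09, limma adjusted p = 0.719).

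Akr1c14, a hydroxysteroid dehydrogenase of the aldo-keto reductase family, was strongly detected. It read 10.59, 10.87, 10.61 and 10.51 after control ASO and 10.9995, 11.02, 11.24 and 10.90 after ACAT2 ASO. Control ASO 2 and ACAT2 ASO 4 were 0.025 apart, the smallest gap of the 10 genes. The log2 difference was 0.39, the smallest of the 10. Transgenic liver differed by 0.02 (95% interval -0.14 to 0.18, limma adjusted p = 0.965).

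Ccdc162 encodes a coiled-coil protein. Its values were 4.05, 4.25, 4.25 and 4.37 after control ASO and 4.71, 4.63, 4.79 and 4.72 after ACAT2 ASO, a log2 difference of 0.49. By mean level it was at percentile 42.4 of all genes. In the transgenic model 4 wild-type arrays gave 5.22 to 5.28 and wild type 5 gave 4.82, with transgenic arrays between 5.08 and 5.28. The difference was -0.01 (95% interval -0.18 to 0.16, limma adjusted p = 0.983).

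The 10 genes did not follow 1 order across the ACAT2 ASO arrays. ACAT2 ASO 3 was the highest array for 7 of them, ACAT2 ASO 4 for Adgrv1 and Man2a2, and ACAT2 ASO 2 for Ccnd1. For Tgfa, Tle1, Egln3, Tcf24 and Ppl, arrays 1 and 3 both lay above arrays 2 and 4. Averaged over the 10 genes, the level relative to the control ASO mean was 0.69, 0.53, 0.80 and 0.56 on ACAT2 ASO arrays 1 to 4, and between -0.08 and 0.06 on the control arrays. With any 1 array left out, the ACAT2 ASO differences of the 10 genes kept their sign, from 0.33 for Akr1c14 to 1.10 for Adgrv1.

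**Figure D2:**
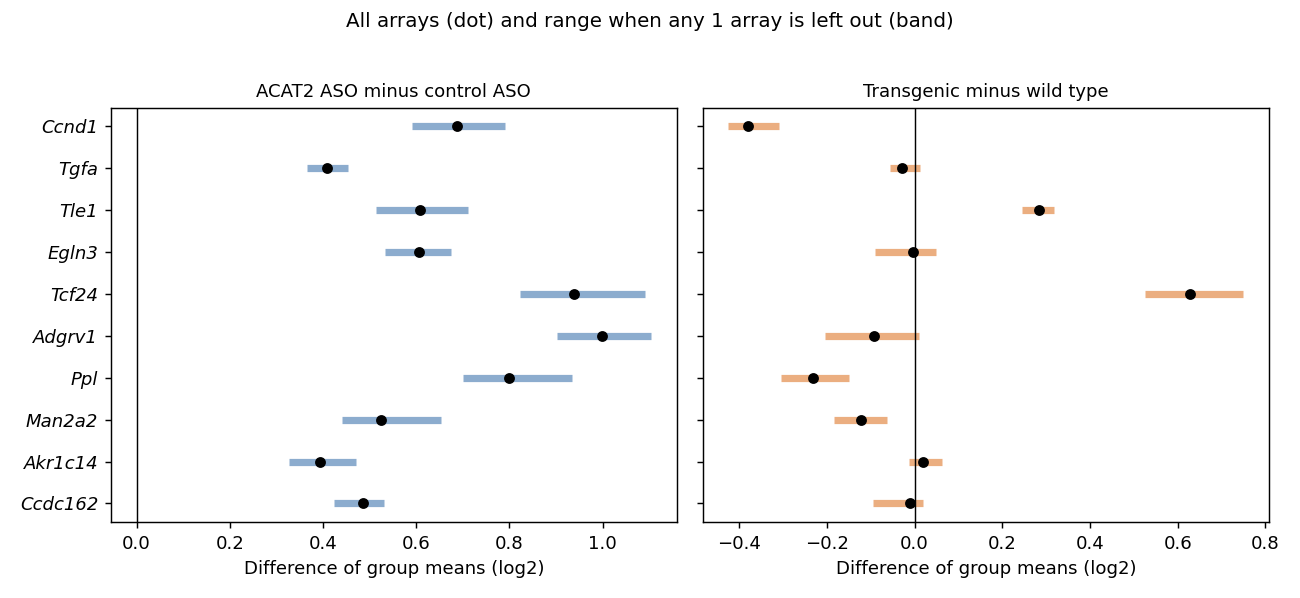
Log2 differences of group means (x axis) for the 10 genes (y axis) with all arrays (black dot) and the range when any single array of the comparison is left out (band), for the ASO model on the left and the transgenic model on the right. All ASO bands lie above 0.3, while in the transgenic model the bands of Tgfa, Egln3, Adgrv1, Akr1c14 and Ccdc162 cross 0.

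Kupffer cell and macrophage markers moved in part with the ASO groups. Of their 12 measured markers 11 lay above 0 after ACAT2 ASO, with a median difference of 0.40, and limma called none (1 at an unadjusted p under 0.05). The mean of these markers was 7.30, 7.36, 7.32 and 8.56 on control ASO arrays and 8.94, 8.02, 7.25 and 7.78 on ACAT2 ASO arrays, so the ranges overlapped. The marker sum ran from 87.6 to 102.7 and from 87.0 to 107.2 in these groups, and Itgam averaged 3.59 and 3.55, near the bottom of the scale. The part of these markers in the differences of the 10 genes was not tested. Cholangiocyte markers ran the other way: 2 of 7 lay above 0, and their mean was 4.41, 4.72, 4.18 and 4.12 after control ASO against 4.14, 4.12, 4.18 and 4.09 after ACAT2 ASO. Krt19, the keratin of bile duct cells, differed by -1.12, with an SD of 1.21 among controls (limma adjusted p = 0.17). Of the markers of stellate cells, sinusoidal endothelium, lymphocytes and neutrophils, 4 of 10, 6 of 10, 4 of 10 and 7 of 8 lay above 0, with medians between -0.02 and 0.05, and none was called.

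The transgenic model is the comparison on which these genes can be tested. Limma called 0 of the 10, against 0.228% of all genes called, with 3 of the 10 at an unadjusted p under 0.05, against 10.9% of all genes. These 3 were Ccnd1, lower, and Tle1 and Tcf24, higher. With the spread taken from the 10 arrays of this comparison alone, 0 of the 10 genes were called, and the limma adjusted p was 0.255 for Ccnd1, 0.161 for Tle1 and 0.254 for Tcf24, while the calls over all genes went from 39 to 13. On the main probe sets the groups did not overlap for Ccnd1 and Tle1, 2 of the 10, against 2.22% of all genes. On both other Ccnd1 probe sets they overlapped. Of the 10 genes 3 lay above 0 and 7 below, with a median of -0.02, beside a median of 0.0058 and 52.6% above 0 over all genes. In the ASO model the median of the 10 genes was 0.61 and that of all genes -0.00056. Limma called 0.181% of all genes higher there, and 4.39% of all genes had higher, non-overlapping groups. Both features chose the 10 genes.

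**Figure D3:**
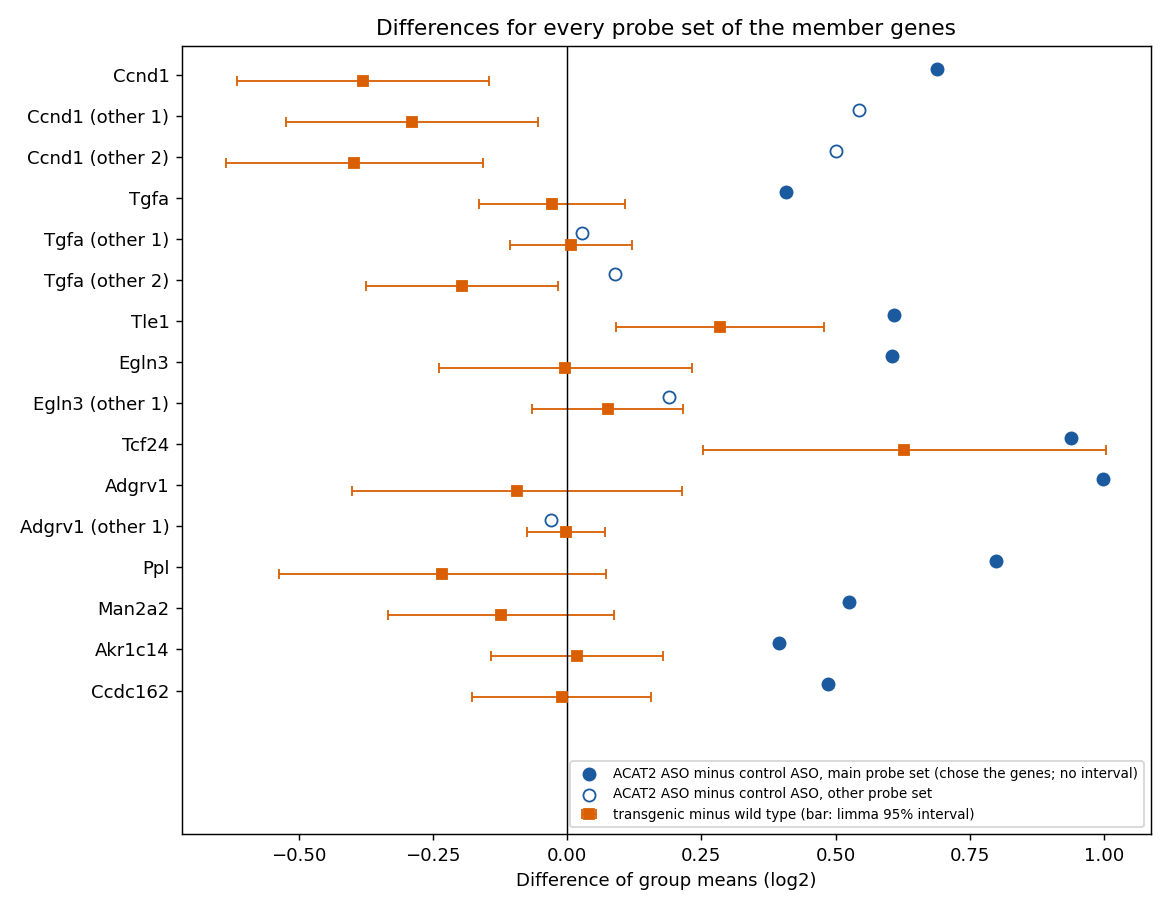
Log2 differences of group means (x axis) for all 16 probe sets of the 10 genes (y axis). Circles are ACAT2 ASO minus control ASO, filled for the main probe set and open for the others, without an interval because this comparison chose the genes; squares are transgenic minus wild type with limma's 95% interval. The 3 Ccnd1 probe sets lie together on the right for the ASO model and on the left for the transgenic model, whereas the open circles of Tgfa (0.03 and 0.09), Egln3 (0.19) and Adgrv1 (-0.03) lie far from the filled ones.

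Over the 6 probe sets that were not the brightest of their gene, 5 lay above 0 in the ASO model, and only those of Ccnd1 came close to the size of the main one. The remaining 6 genes have 1 probe set each. At the lower edge of the list, Tgfa and Akr1c14 stood at 0.41 and 0.39, and the next called rises outside it were Zfp638 at 0.37, Kap at 0.36 and Ccr1l1 at 0.34, so no break in size separates the 10 genes from those that follow.

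Relatives of the 10 genes, in 11 lists of pathway partners and gene families, showed no called change after ACAT2 ASO. Limma called 0 of 185 measured genes, against 0.597% of all genes, and 23 of the 185 (12.4%) had an unadjusted p under 0.05, against 13.3% of all genes. In transgenic liver limma called 1 of the 185, and 17 (9.19%) had an unadjusted p under 0.05, against 10.9% of all genes. The median differences over the 185 genes were -0.0036 and -0.0099.

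Among cyclins, kinases, inhibitors and RB-E2F genes of the G1/S transition, 0 of 22 were called in either model. The cyclin Ccnd3 differed by -0.22 ± 0.06 after ACAT2 ASO (SE, limma adjusted p = 0.119) and Cdk4, the kinase partner of D-type cyclins, by -0.22 ± 0.07 (adjusted p = 0.148). Ccnd2 differed by -0.22 ± 0.16, with a limma adjusted p of 0.604, and its 5 other probe sets were also below 0. Cdk4 lay below every control ASO array on all 4 ACAT2 ASO arrays, with 6.96, 6.85, 7.01 and 6.89 against 7.16, 7.17, 7.12 and 7.14. Of the D-type cyclin genes Ccnd1 was thus higher, and the estimates of Ccnd2 and Ccnd3 and of Cdk4 were below 0 and did not pass the test. In transgenic liver Cdk4 differed by -0.19, the inhibitor genes Cdkn1b and Cdkn1c by -0.22 and 0.27 (limma adjusted p between 0.232 and 0.298).

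Genes of S phase and mitosis gave no call in either model, 0 of 23 in each. After ACAT2 ASO 10 of the 23 lay above 0 with a median of -0.02, and 1 had an unadjusted p under 0.05. That gene was Rrm1, a ribonucleotide reductase subunit, at -0.30 ± 0.09 (SE, limma adjusted p = 0.134), but its second probe set differed by -0.02. The proliferation marker Mki67 was at 3.78 ± 0.42 against 3.89 ± 0.85 (SD, n = 4), and Top2a at 4.16 ± 0.73 against 4.12 ± 0.81. Pcna, the DNA polymerase clamp, differed by -0.12. The largest difference of the list was that of Rrm2, 0.43 ± 0.37 (SE, limma adjusted p = 0.679), but its second probe set differed by 0.02. Ccnb2 differed by 0.30 ± 0.34 (SE, limma adjusted p = 0.776). In transgenic liver Mcm7, of the replicative helicase, differed by -0.20 (limma adjusted p = 0.302). Ccnd1 and Tgfa have known roles in growth, and no gene of this list was called. Errors were wide for some list genes, with an SE of 0.38 for Mki67 and 0.43 for Top2a after ACAT2 ASO. Whether growth changed was not tested.

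Of the ligands, receptors and feedback genes of the EGFR family, 0 of 19 were called in either model. Egfr, the receptor of TGF alpha, had the largest difference of the list after ACAT2 ASO, 1.05 ± 0.47 (SE), with a limma adjusted p of 0.344. Its arrays spread widely: 8.36, 8.27, 9.07 and 10.11 after control ASO and 10.72, 9.79, 10.04 and 9.45 after ACAT2 ASO. Control ASO 4 lay among the treated arrays, and without it the difference was 1.43 (limma adjusted p = 0.181). The other Egfr probe sets differed by between -0.10 and 0.80. Btc, which encodes the ligand betacellulin, differed by 0.34 after ACAT2 ASO and by -0.29 in transgenic liver (limma adjusted p = 0.262 and 0.381), but its second probe set differed by -0.03 in the ASO model. Epgn, another ligand gene, differed by 0.14 after ACAT2 ASO.

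The HIF hydroxylases, HIF subunits and HIF targets gave 0 calls of 21 in each model, with 4 and 0 at an unadjusted p under 0.05. After ACAT2 ASO the glucose transporter gene Slc2a1 differed by -0.52 ± 0.15 (SE, limma adjusted p = 0.129), or -0.33 without control ASO 4. Its second probe set differed by -0.18. Epas1, the HIF-2 alpha gene, differed by 0.29, the asparaginyl hydroxylase gene Hif1an by 0.23 and Vhl, which recognizes hydroxylated HIF, by 0.19 (limma adjusted p between 0.168 and 0.358). Their other probe sets differed by 0.21 for Epas1, 0.04 and 0.0061 for Hif1an and -0.05 for Vhl. The sister hydroxylases of Egln3, Egln1 and Egln2, differed by -0.12 and -0.08 (limma adjusted p = 0.688 and 0.624). Median differences of the list were -0.06 in the ASO model and 0.05 in the transgenic model.

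TLE corepressors and their partners gave 0 calls of 13 in either model. Tle5, a short family member, differed by -0.30 ± 0.11 after ACAT2 ASO (SE, limma adjusted p = 0.193). Tle4 differed by 0.19 and Tle3 by -0.11, and in transgenic liver both differed by -0.25 (limma adjusted p = 0.373 and 0.459), the opposite side to Tle1. Their other probe sets differed less in transgenic liver, by -0.13 and -0.02 for Tle4 and by -0.04 and 0.07 for Tle3. After ACAT2 ASO the other Tle4 probe sets differed by -0.05 and -0.0042. Of the targets of Wnt/beta-catenin signalling and genes of hepatocytes around the central vein, 0 of 15 were called in each model. After ACAT2 ASO 12 of these 15 lay above 0, with a median of 0.14, against 49.7% of all genes above 0. The ligase gene Znrf3 differed by 0.37 and the glutamate transporter gene Slc1a2 by -0.52 ± 0.12 (SE, limma adjusted p = 0.3 and 0.0563). The second probe sets of Znrf3 and Slc1a2 differed by 0.18 and -0.08. In transgenic liver 5 of the 15 lay above 0 with a median of -0.06, and the ammonium transporter gene Rhbg differed by 0.51 (limma adjusted p = 0.0873) and Lect2 by 0.23. Rnf43 had the highest difference of the list after ACAT2 ASO, 0.57, and the lowest in transgenic liver, -0.46. It was called in neither model.

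Among the aldo-keto reductases 0 of 13 were called in either model and 3 lay above 0 after ACAT2 ASO, where Akr1c14 was higher. The difference of largest size was that of Akr1c19, -0.39 ± 0.18 (SE, limma adjusted p = 0.357), on the other side from Akr1c14. Akr1c6 differed by 0.11, Akr1b8 by -0.22 and Akr1e1 by -0.21 (limma adjusted p between 0.287 and 0.313). Akr1c12 and Akr1c13, of the same gene cluster, differed by -0.07 and -0.05. In transgenic liver Akr7a5 differed by 0.15 (limma adjusted p = 0.349).

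N-glycan trimming and branching gave 0 calls of 16 after ACAT2 ASO and 1 in transgenic liver. Man2c1, the cytosolic mannosidase gene, differed by 0.30 ± 0.08 after ACAT2 ASO (SE, limma adjusted p = 0.0958). Its second probe set differed by 0.10. Man2a1, the closest relative of Man2a2, differed by -0.13 ± 0.06 (limma adjusted p = 0.319). The call was Mgat4b, a branching glycosyltransferase gene, which fell by 0.24 on the log2 scale in transgenic liver (limma adjusted p = 0.0306) and differed by 0.15 after ACAT2 ASO (adjusted p = 0.189). The difference between these effects was 0.39 (limma adjusted p = 0.0112). That test is given only because Mgat4b was called in transgenic liver, so its p is not independent of the call. The Mgat4b call was kept without wild type 5 or transgenic 3 and lost without any 1 of the 8 other arrays of the comparison. It was also lost without the 3 arrays that stand apart, with only the arrays of the comparison, with trended and robust variance and with the replicate block (limma adjusted p = 0.0894, 0.2, 0.0763 and 0.106). Mogs and Mgat5 differed by 0.24 and 0.29 in transgenic liver (limma adjusted p = 0.284 and 0.306), but the other Mgat5 probe sets differed by -0.05 and 0.00089 there.

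Plakin, desmosome and keratin genes gave 0 calls of 14 in either model. Dsp, the desmoplakin gene, differed by 0.16 after ACAT2 ASO, Evpl, the envoplakin gene, by -0.05 and Krt18, a hepatocyte keratin gene, by -0.31 (limma adjusted p = 0.722, 0.876 and 0.421). Jup differed by -0.16. In transgenic liver Pkp1 differed by -0.23 and Dsg2 by -0.19 (limma adjusted p = 0.251 and 0.281). For adhesion receptors and Usher partners 0 of 17 were called in either model. Adgrl1 differed by 0.31 ± 0.08 after ACAT2 ASO (SE, limma adjusted p = 0.0982) and by 0.16 on its second probe set. Adgre1, also among the macrophage markers, had the largest difference of the list after ACAT2 ASO, 0.57, and was not called. Ush1c differed by -0.38 in transgenic liver (limma adjusted p = 0.0852). Helix-loop-helix factors related to TCF24 gave 0 calls of 12 in each model, with the largest size of difference after ACAT2 ASO at Twist1, -0.17 (limma adjusted p = 0.426), while Tcf21 and Tcf23 differed by 0.06 and -0.04.

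**Figure D4:**
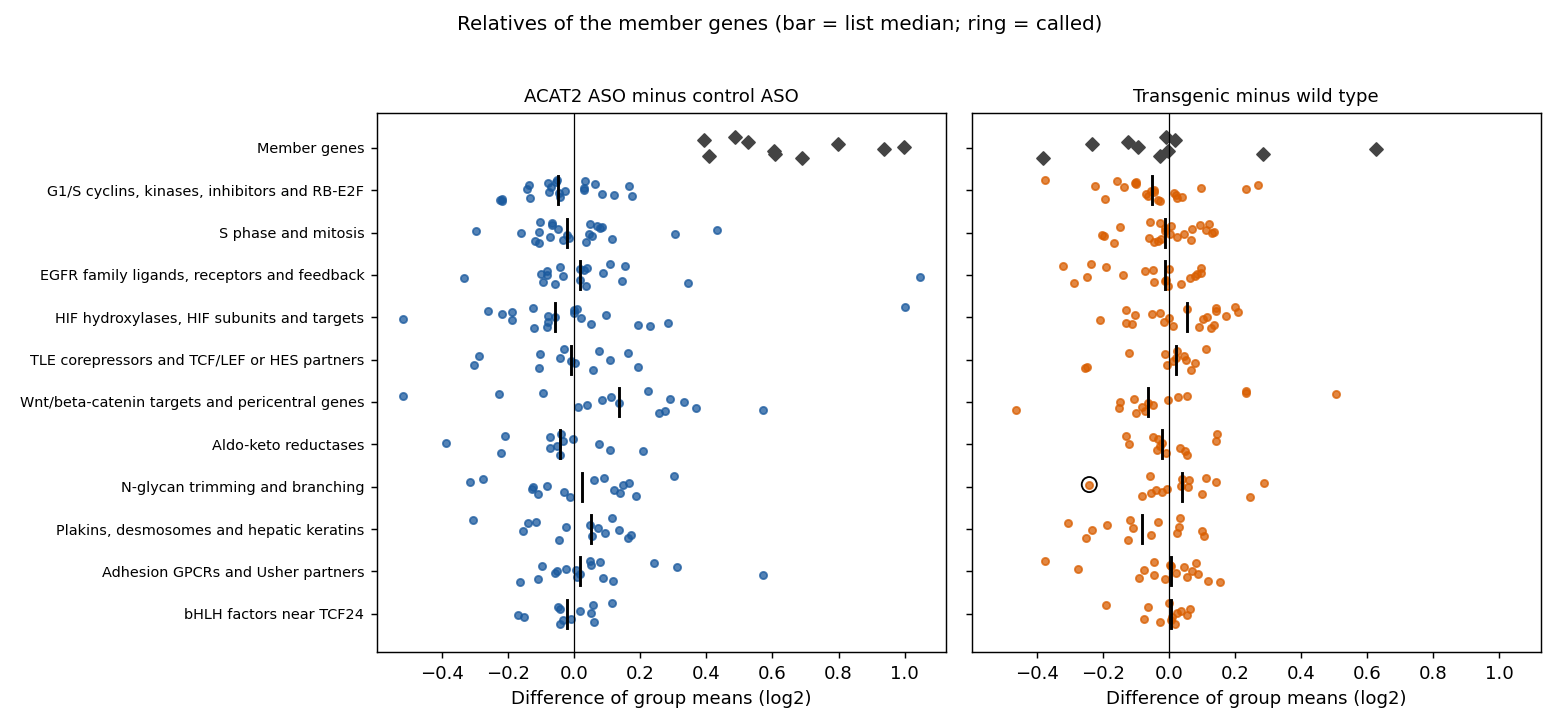
Log2 differences of group means (x axis) for the 10 genes (diamonds, top row) and for the measured genes of each of 11 lists of relatives (dots), after ACAT2 ASO on the left and in transgenic liver on the right; the black bar is the list median and a ring marks a call. The relatives centre near 0 on the left, with Egfr at 1.05 and the HIF target Ddit4 at 1.00 (limma adjusted p = 0.344 and 0.655) as the uncalled dots farthest to the right, and the only ring is Mgat4b on the right.

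The genes whose values over all 18 arrays were most like those of Ccnd1, each centred on the control group of its model, were Spag9, Rhou, Tmc4, Dact1 and Mcc. Their root mean square differences from Ccnd1 were 0.23 for Spag9, 0.24 for Rhou, Tmc4 and Dact1 and 0.25 for Mcc, against a median of 0.44 over all genes and 0.42 for a gene that never departs from its control mean. Dact1 and Mcc differed by 0.61 and 0.57 after ACAT2 ASO and by -0.16 and -0.37 in transgenic liver, whereas Spag9, Rhou and Tmc4 differed by between 0.32 and 0.36 and between -0.29 and -0.19. These genes were chosen for their likeness, so their values are a description.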

How the data were processed

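Liver RNA was amplified from its 3′ end by the Affymetrix 3′-IVT procedure, per the labels' protocols. The authors summarised each probe set with RMA, per the submitters' processing notes, and deposited the log2 values; the labels and notes used here give no version or build. Array medians lay at 4.61 to 4.65 in the transgenic and 4.38 to 4.40 in the ASO model; RMA was possibly run on each model by itself, and levels were compared only within a model. No 2 arrays were identical. Of 45141 probe sets 104 controls were left out, and 28898 had 1 symbol in the platform annotation, giving 17097 genes. The brightest probe set represented a gene, with no filter on low values.

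Limma 3.58.1 (R 4.3.3; lmFit, eBayes) fitted group means over all 18 arrays, two-sided, and called genes whose p, adjusted by Benjamini-Hochberg, was under 0.05. The procedure was tested on simulated data. The number of arrays limits precision. The 10 genes, the 11 lists of relatives, the 7 marker lists and the rules were chosen with earlier results of these data known. Named were the 10 genes, up to 4 list genes with the smallest p, called list genes, the 3 next rises and 5 genes most like Ccnd1; other list genes were named after their values were seen. List members absent from these values were not analysed here. Alternatives covered filtering, scaling, probe set choice, variance, weights, pairing and single arrays. Figures used matplotlib 3.10.9.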

Additional observations from a re-analysis of the deposited data

Results flagged for a closer look

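In 64 groups of 4 or 5 arrays, 1 for each of the 16 probe sets in each of the 4 groups, 2 held an array whose gap to its nearest neighbour was above Dixon's 95% limit, and chance alone flags about 1 group in 20. For Tcf24 wild type 2 gave 3.95, with the other wild-type arrays between 3.41 and 3.52. For Ccdc162 wild type 5 gave 4.82, with the others between 5.22 and 5.28. The transgenic difference of Tcf24 was 0.73 without wild type 2, and that of Ccdc162 was -0.10 without wild type 5.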

How the results depend on the processing

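The 10 genes gave 0 calls in transgenic against wild-type liver under every alternative run. On their main or averaged probe sets, their ACAT2 ASO differences stayed above 0 under each, while the second Adgrv1 probe set by itself differed by -0.03. The median of 0.61 became 0.51 with probe sets averaged per gene (0.18 for Tgfa, 0.40 for Egln3, 0.48 for Adgrv1). It lay between 0.56 and 0.67 with 1 array left out. Genes under the filter on the lowest 40% of means, Tcf24 among them, have no value there. The count of all genes called depended most on the setting, and the cause was not tested. In transgenic liver it was 39 over all arrays, 13 with only the arrays of the comparison, 2 with the replicate number as a block, and 20 to 58 with 1 array left out. After ACAT2 ASO it was 102, 17 with only the arrays of the comparison, 18 with the replicate block, 465 with array weights, 46 without the 3 arrays that stand apart, and 42 to 203 with 1 array left out. Of the list genes 1 was called in transgenic liver: 2 with every probe set tested by itself, 0 with only the arrays of the comparison, with trended and robust variance, with the replicate block and without the 3 arrays, and 0 to 1 with 1 array left out. After ACAT2 ASO 0 list genes were called: 1 with the lowest 40% of means removed, 3 with array weights, and 0 to 1 with 1 array left out. Slc1a2 passed on its main probe set in both of these settings (limma adjusted p = 0.0469 and 0.00995), and Cdk4 and Man2c1 with array weights (0.0495 and 0.0308).

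The sign turned in transgenic liver for Egln3 (0.0359 with probe sets averaged, 0.0404 with array weights and 0.0116 without the 3 arrays), for Ccdc162 (0.0033 without the 3 arrays) and for Ctnnb1 (-0.0377 with probe sets averaged). With 1 array left out the range crossed 0 for Tgfa (-0.0562 to 0.0114), Egln3 (-0.0911 to 0.0497), Adgrv1 (-0.203 to 0.0111), Akr1c14 (-0.0132 to 0.0619) and Ccdc162 (-0.0954 to 0.0199), while Ccnd1 lay between -0.42 and -0.31, Tle1 between 0.24 and 0.32 and Tcf24 between 0.53 and 0.75. Replicate numbers are shared between groups, but same-numbered arrays did not consistently deviate together. Their correlations ran from -0.48 to 0.17 in the transgenic and from -0.48 to 0.47 in the ASO model. The highest was that of control ASO 3 with ACAT2 ASO 3, which was also its best match. Because the other pairs did not follow this, the block is an alternative only. The number of arrays limits what could be called.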

Other observations

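The nearest measured genes on either side of each of the 10 genes in the RefSeq gene order, an analysis added after seeing the data, held 20 genes. Limma called 0 of them after ACAT2 ASO, against 0.597% of all genes. Of the 20 genes 1 had an unadjusted p under 0.05, against 13.3% of all genes, and 11 lay above 0, against 49.7%, with a median of 0.02 and a range from -0.20 to 0.27. That 1 gene was Lysmd3, next to Adgrv1, at 0.27 (limma adjusted p = 0.257). Akr1c18, beside Akr1c14 in the aldo-keto reductase cluster, differed by 0.07 (limma adjusted p = 0.763), and Tpcn2, beside Ccnd1, by -0.08 (limma adjusted p = 0.781).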
